A study of Mus musculus with 4 samples.

Results

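Broad H4K16ac domains are long stretches of liver chromatin marked by acetylation of lysine 16 of histone H4, with signal called in both a Sirt1-deficient mouse and a wild-type mouse and a joint span of at least 10 kb. They were found by merging the islands of the 2 deposited lists wherever these overlapped by at least 1 bp, an island being a run of windows in which ChIP reads outnumber what the scaled input predicts. A merged region was kept when it held islands of both lists, spanned at least 10000 bp, and had at least 1.5 ChIP reads for each input read in each list. This gave 926 broad domains, which were 6.29% of the 14719 regions shared by the lists and 2.54% of all 36418 merged regions. The domains were thus chosen by the position, length, ChIP reads and input reads of the islands in both genotypes, and these values are given below as a description, with no test.

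ChIP-Seq of H4K16ac was carried out on liver of 3-month-old mice on a mixed 129/FVB/Black Swiss background, with tissue taken in the morning. The study's text gives the mutant mice of this experiment as males and states that comparisons were made within the same sex. The mutant mouse (MT) was a Sirt1 knockout, which by the study's text carries a targeted deletion of Sirt1 exons and belongs to the minority of such animals that reach adulthood, and the wild-type mouse (WT) was kept on the same light cycle. Each genotype was represented by 1 mouse, with 1 ChIP library made with the Santa Cruz H4K16ac antibody and 1 input library, so a difference between the genotypes has no replicate check and a difference between 2 mice cannot be told apart from one between the genotypes. The study's text describes a further pair of mice for ChIP-Seq, which was not analysed here. Whole liver was used, so signal from hepatocytes and from other liver cells was measured together, and fewer cells carrying the mark and less of the mark per cell cannot be told apart. The lists name no genes and no annotation of their build (mm8) was used here, so domains are given by position alone and neither the Sirt1 deletion nor liver marker genes could be checked.

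H4K16ac is a mark of open chromatin: acetylation of this residue weakens the contact between neighbouring nucleosomes and hinders the folding of the fibre. It is written in mammals chiefly by the acetyltransferase MOF (KAT8) and removed by deacetylases that include the NAD-dependent enzyme SIRT1. In ChIP-Seq it can form wide stretches over active genes besides narrow peaks at promoters and enhancers.

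The MT list held 28377 islands with 2916128 ChIP reads, and the WT list held 26227 islands with 2264125 ChIP reads. The deposited fold over input gave the size of each ChIP library relative to its input, 1.06 in MT and 1.1 in WT. Library totals are not in the lists, so the depths were set against each other through the input reads per covered kb over all shared regions, which made the MT ChIP library 1.0465 times as deep as that of WT. Every comparison of scaled ChIP density or reads between MT and WT rests on this scaling, unless another is named. Enrichment over input uses only the size of each ChIP library relative to its own input.

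Broad domains were few but held a large part of the listed signal. They took 14.7% of the ChIP reads inside all MT islands and 15.5% of those inside all WT islands, with 427763 and 350489 reads, respectively. They held 5.0% of the islands and 12.9% of the covered length in MT, and 6.6% and 13.9% in WT. A median domain spanned 12000 bp, with 413 ChIP reads in MT against 344 in WT and 181 input reads against 143. The spans ran from 10000 to 60400 bp and added up to 12.5 Mb, and 25% of the domains were longer than 14400 bp.

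Many domains lay close to the limits of the rule. Just inside the span limit, 57 domains measured exactly 10000 bp, and just outside it 59 shared regions with the same ratio measured 9800 bp. At the ratio limit, the domains at chr11:119638801-119649200 (258 ChIP and 172 input reads in MT) and chr18:75800201-75814400 (348 and 232 in WT) had exactly 1.5. The shared regions nearest below it, at chr16:21443201-21453600 in MT and chr17:46910601-46922000 in WT, both had 1.49. A further 39 shared regions of at least 10 kb fell below the ratio, 33 of them in MT, 13 in WT and 7 in both.

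Of the 10 longest domains, 6 held fewer islands in MT than in WT, 2 held more, and 2 held the same number. The longest of all, at chr17:86386201-86446600, spanned 60400 bp and held 3 islands in MT and 4 in WT. ChIP reads numbered 2238 in MT and 2179 in WT, input reads 910 and 883, so that reads per covered kb were 41.3 and 37.6. Its longest island measured 33600 bp in MT and 24800 bp in WT. After scaling, its ChIP density was 0.07 higher in MT on the log2 scale, with a counting interval from -0.02 to 0.16.

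The second longest domain, at chr8:129696601-129739400, spanned 42800 bp and was divided unevenly. In MT an island of 39400 bp filled most of it, beside 1 other island, whereas in WT the same stretch was split into 7 islands of 1400 to 11000 bp. Read totals were close, with 1889 ChIP reads in MT and 1870 in WT. Within the WT islands the density ran from 32.1 reads per covered kb at the upstream side to 75.7 in an island of 4200 bp near the middle. The WT level thus varied along the divided stretch.

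The third domain, at chr5:124470201-124512400, showed the reverse division. WT carried it as 1 island of 41800 bp with 1713 reads, and MT as 2 islands of 6400 and 35200 bp with 2051 reads together. Its scaled ChIP density was 0.20 higher in MT on the log2 scale, with a counting interval from 0.11 to 0.29.

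The remaining 7 of the 10 longest domains spanned 32400 to 37800 bp. At chr9:42981401-43019200, 4 islands in MT faced 8 in WT, and 1503 ChIP reads faced 1115. At chr4:6832201-6867400, each genotype had 3 islands, and the density change was 0.00 on the log2 scale. These 2 domains had similar spans and differed in how far the lists divided them.

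At chr9:34861001-34895600, 1 MT island of 33200 bp faced 4 in WT. At chr7:80309001-80342800, 1 MT island of 33000 bp also faced 4 in WT, and here the WT density was the higher, 55.9 against 50.1 reads per covered kb, a scaled change of -0.23 on the log2 scale. At chr2:27374401-27407800, a single MT island filled the whole span, WT had 2 islands, and the densities were 59.1 in MT, the highest MT value of these 10, and 55.3 in WT. All 3 were undivided in MT.

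The domain at chr13:63295601-63329400 stood out for its low enrichment, 1.52 times the scaled input in each genotype, with an input density of 21.7 reads per covered kb in MT and 18.7 in WT. The domain at chr6:136869201-136901600 reached further in MT, with 31600 bp covered against 23400 bp, and held 1423 reads against 891. Over the 10 longest domains the scaled density change ran from -0.23 to 0.20, so none was 25% higher in MT (0.32 on the log2 scale) or as far below WT.

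**Figure D1:**
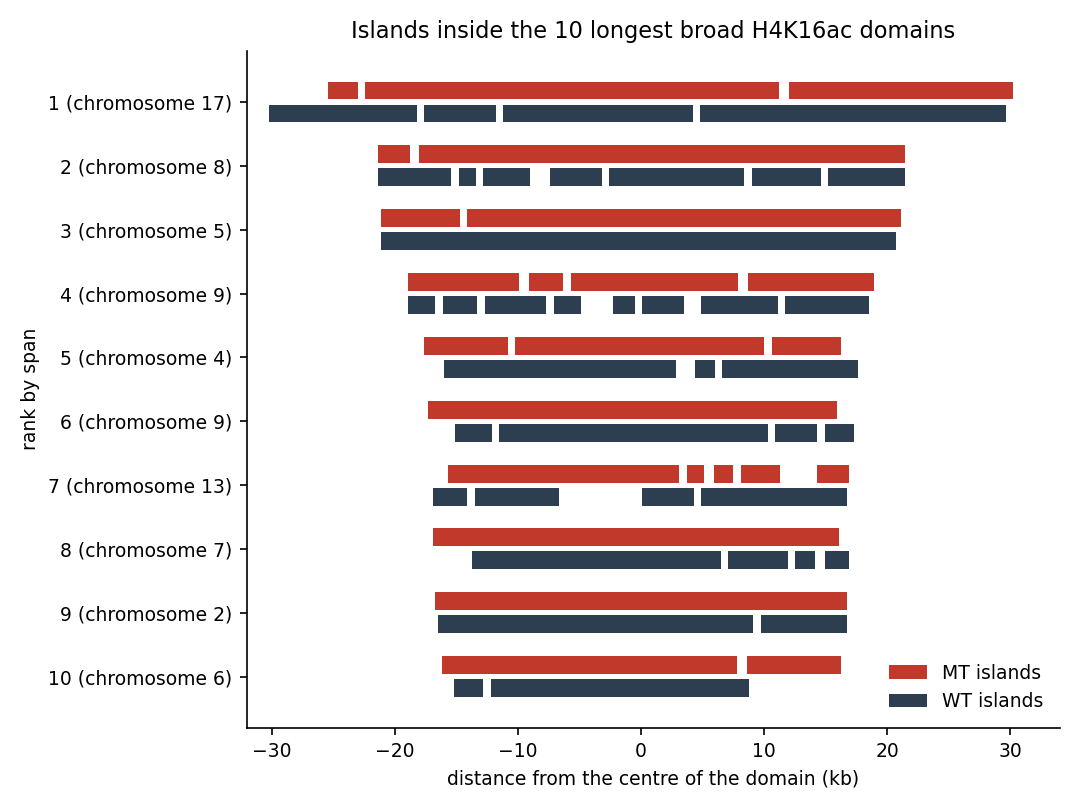
Islands of MT (red, upper bar) and WT (dark blue, lower bar) inside the 10 longest broad domains, drawn to scale as distance in kb from the centre of each domain, with the rank by span and the chromosome on the vertical axis. The domain ranked 2 is 2 islands in MT and 7 in WT, and the domain ranked 3 is 2 islands in MT and 1 in WT.

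Across all domains the MT islands filled more of the span. The covered share of the span had a median of 94.1% in MT and 81.8% in WT, and summed over all domains MT covered 11.3 Mb and WT 9.72 Mb, a ratio of 1.16. The whole span was covered in 270 domains by MT and in 82 by WT, and less than 50% of it in 18 and 93 domains, respectively. More length was covered in MT in 630 domains (68.0%), against 56.9% of all shared regions, in WT in 273 domains (29.5%, against 33.9%), and 23 domains were equal. The ratio of covered lengths was 1.19 in shared regions of 5 to under 10 kb and 1.15 in all shared regions outside the broad domains, so the longer MT coverage was also present in narrower regions and is not particular to broad domains.

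**Figure D2:**
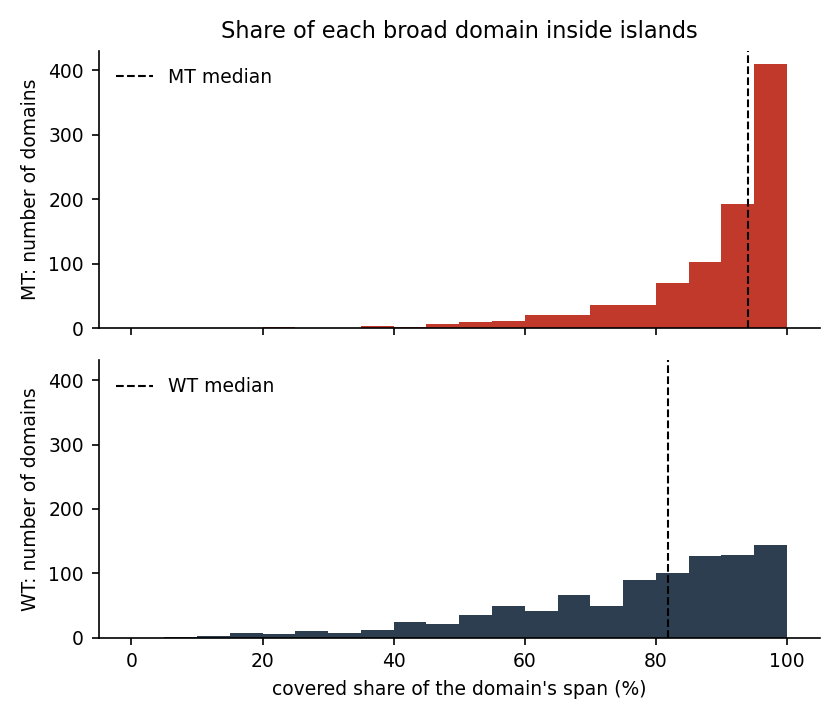
Number of broad domains by the share of their span that lay inside MT islands (top) and WT islands (bottom), in classes of 5 percentage points, with the median dashed (94.1% in MT, 81.8% in WT). The MT distribution is packed at the right edge, and the WT distribution has a long tail to the left.

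The extra MT length lay mainly at the outer ends. Islands of both lists covered 67.8% of the summed span. A further 2793.4 kb was covered in MT alone, of which 1879.6 kb lay beyond the ends of the WT islands and 913.8 kb in gaps between them. WT alone covered 1233.2 kb, 792.4 kb at the ends and 440.8 kb in MT gaps. MT islands began first in 479 domains and ended last in 473, whereas WT islands began first in 289 and ended last in 267. These counts are not set beside those of narrower regions, so they are not read as particular to broad domains. Only 39 domains had the same outer ends in both lists, and the median offset of an end was 800 bp, or 4 windows of the caller.

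Domains more often held a single island in MT. MT had 1 island in 532 domains and WT in 357, but 1 island need not fill the span. Where both lists had 1 island, the median covered share of the span was 100% in MT and 74.5% in WT. The commonest arrangement was 1 island in MT facing several in WT, in 315 domains (34%). Several islands in both were found in 254 domains, 1 island in both in 217, and 1 island in WT facing several in MT in 140. More islands in WT than in MT were counted in 383 domains (41.4%, against 10% of all shared regions), and more in MT in 174 (18.8%, against 5.36%). Long regions have more room for gaps, and the rule joins islands of 1 list only where an island of the other bridges them. How far these shares above the background follow from length or from the rule was not tested.

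The gaps that divided the domains were narrow. The caller joins windows over gaps of up to 400 bp, so the shortest gap that can part islands was 600 bp. Of 492 MT gaps the median was 600 bp, and of 806 WT gaps 800 bp, and 82.5% and 74.7% of them were at most 1000 bp. The longest was 4400 bp in MT and 7800 bp in WT. Islands of the same domain had similar levels, with a median ratio of the highest to the lowest island density of 1.23 in MT and 1.28 in WT.

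Single islands of at least 10 kb were counted in each list. MT had such an island in 494 domains and WT in 256. Both had one in 131 domains, which is 26.5% of those in MT and 51.2% of those in WT. MT alone had one in 363 domains and WT alone in 125, and in 307 domains neither list held a single island that long. From the first to the last island of 1 list the extent reached 10 kb in 753 domains in MT and 601 in WT, and in 47 domains it did so in neither, so that the span came only from the union of both lists.

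Within the covered length, the level of H4K16ac in broad domains was close in MT and WT. The median ChIP density was 36.7 reads per covered kb in MT and 34.5 in WT before scaling, and the median input density was 16.3 and 15. After scaling, the median log2 change from WT to MT was 0.01, with 25% of domains below -0.11 and 25% above 0.13, and 52.7% of the domains were higher in MT. The summed ChIP density was 1.01 times that of WT, with a 95% counting interval of 0.9996 to 1.01 that includes the error of the library ratio. Without that error the exact binomial interval was 1.0005 to 1.0095. The SD over domains was 0.19, while counting error alone gives a median domain an SD of 0.11. The input, measured the same way, had a median change of 0.00, which the scaling sets near 0, and an SD of 0.19, beside a counting SD of 0.16 for a median domain.

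This equality depends on the scaling. With the ChIP totals over all islands set equal, the median change was -0.29, with 4 domains at least 25% higher and 388 at least 20% lower in MT, which is the same step on the log2 scale. With the totals over the other shared regions set equal, it was -0.19, with 6 higher and 198 lower. Each of these totals sums more covered length in MT than in WT. Either scaling moves every region by the same amount. The share of all shared regions past these steps was not computed under it, so these counts have no background beside them.

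Domains past a fixed size of change were counted under the main scaling. At least 25% higher in MT were 47 domains (5.08%, against 12.3% of all shared regions), and at least 20% lower 36 (3.89%, against 14.4%). At 1.5-fold the counts were 4 and 3 domains, against 2.89% and 4.05% of all shared regions. These shares were below the background. Broad domains also held more reads, and the counting SD of the density change was 0.11 for a median domain and 0.22 for a median shared region outside them. For the input density, 46 domains were at least 25% higher and 38 at least 20% lower in MT, against 17% and 15.9% of all shared regions. At 1.5-fold the input counts were 3 and 2 domains, against 5.5% and 4.87%. The input had fewer reads than the ChIP, and so a larger counting error. With ChIP taken over each genotype's own scaled input, 98 domains were at least 25% higher and 71 at least 20% lower in MT. The share of all shared regions past these steps was not computed for this measure. The counting interval lay above 0 in 111 domains (12.0%, against 7.23%) and below 0 in 78 (8.42%, against 7.96%).

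**Figure D3:**
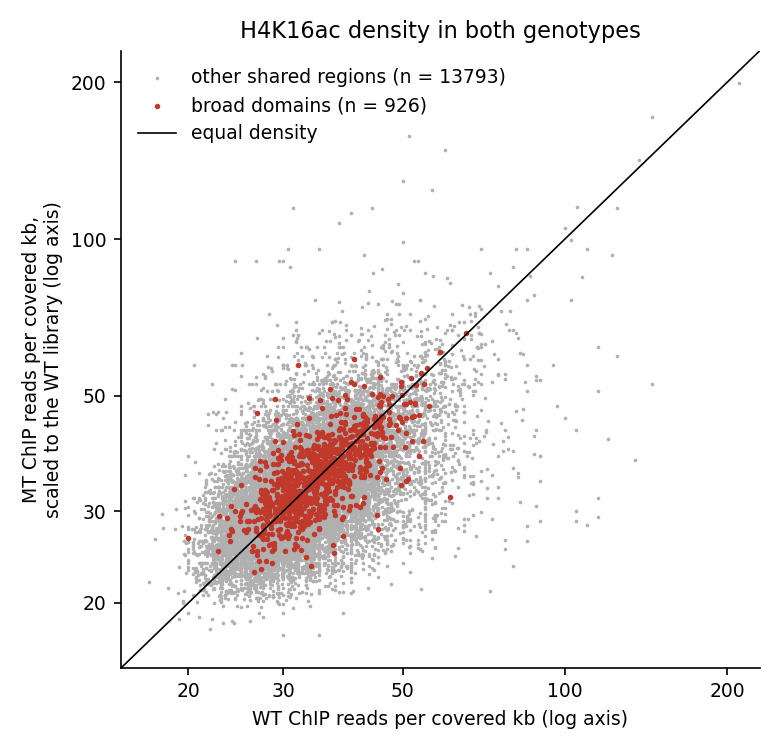
Scaled MT ChIP reads per covered kb against WT ChIP reads per covered kb, both on log axes, for 926 broad domains (red) and 13793 other shared regions (grey), with the line of equal density. The broad domains lie close about the line, and the other shared regions, which have fewer reads, spread further from it on both sides.

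Reads per domain, not divided by length, were higher in MT. The median log2 change was 0.20, with 71.2% of domains higher in MT, and the summed reads were 1.17 times those of WT after scaling. All shared regions had a median of 0.16 with 63.2% higher in MT, and those of 5 to under 10 kb a median of 0.24 with 68.0%, so the values of broad domains were near the background. At least 1.5-fold more reads in MT were found in 198 domains (21.4%, against 22.8% of all shared regions) and at least 1.5-fold fewer in 37 (4.00%, against 9.14%). The summed covered length, for comparison, was 1.16 times that of WT. With the ChIP totals over all islands set equal, this median turned to -0.10.

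**Figure D4:**
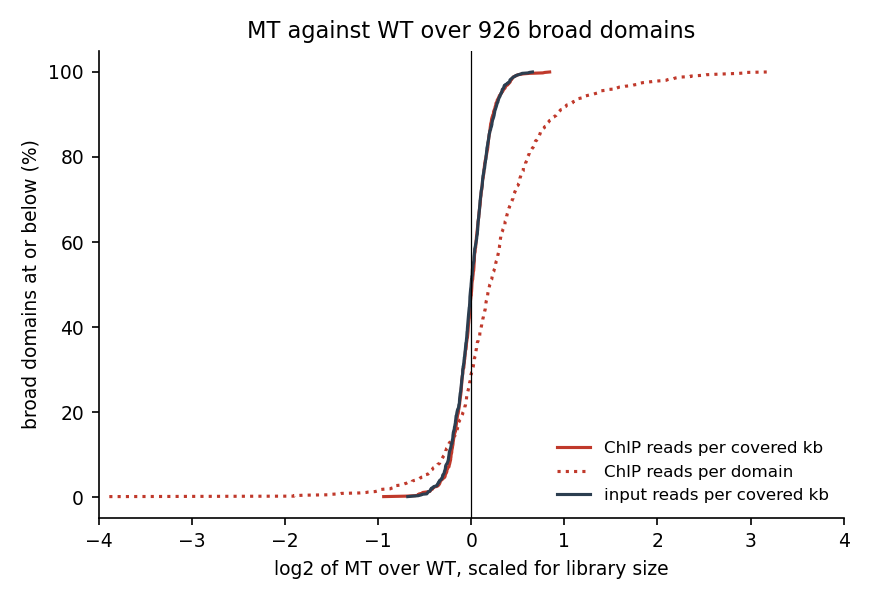
Cumulative share of the 926 broad domains (vertical axis, %) by the scaled log2 change of MT over WT in ChIP reads per covered kb (solid red), ChIP reads per domain (dotted red) and input reads per covered kb (dark blue). The curves of ChIP and input density lie on each other and cross 0 near 50%, and the curve of reads per domain is shifted to the right with a median of 0.20.

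Most of the largest density changes came where the lists covered unequal parts of the domain. The highest, 0.84 on the log2 scale, was at chr8:18756801-18767400, where MT had 1 island of 400 bp with 24 ChIP reads and WT 1 island of 10600 bp with 339. The next highest, 0.79 at chr15:85477001-85487200 and 0.77 at chr11:115506401-115516400, had 37.3% and 50% of the span covered in MT and 100% and 94% in WT. At chr10:80810801-80821600, with a change of 0.63, MT filled the span with 507 reads and WT covered 59.3% of it with 186. Of the 5 highest, only chr2:29442201-29453600 had nearly the same stretch in both lists.

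At the lower end, the change of -0.94 at chr16:34720401-34730800 set an MT island of 10400 bp with 347 reads against a WT island of 2600 bp with 159. The next were -0.70 at chr9:121756801-121768600, -0.60 at chr13:93757001-93769600, -0.58 at chr9:31727601-31737600 and -0.57 at chr10:80696601-80707600. In all 5 of these MT covered the whole span and WT between 25% and 66.7% of it. A density averaged over a long island and one averaged over a short stretch inside it do not measure the same bases. Across the 926 domains the density change and the difference in covered share had a Spearman rho of -0.25, as a description of points that share their libraries.

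Domains covered alike give the closest comparison. In 261 domains (28.2%) at least 80% of the span lay in islands of both lists, a limit chosen after the data were seen. Here the median density change was 0.03 and the SD 0.16, and 60.9% of the domains were higher in MT. At least 25% higher in MT were 16 of the 261 and at least 20% lower 2, against 12.3% and 14.4% of all shared regions. None passed 1.5-fold in either direction. The summed ChIP density of these domains was 1.028 times that of WT, with a counting interval from 1.019 to 1.036. The input libraries set the scaling, so this value moves with them.

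Of these 261 domains, 48 had a counting interval above 0 and 17 below 0, against 7.23% and 7.96% of all shared regions. Broad domains hold more reads and so have narrower counting intervals. The most different of the 261 are described here. At chr2:29442201-29453600, 11200 bp in MT held 581 ChIP reads and 11400 bp in WT held 382, a scaled change of 0.56 with an interval from 0.38 to 0.75, while the input reads were 229 and 223. At chr11:117642001-117652000 there were 602 reads in MT and 374 in WT, a change of 0.53. Both were higher in MT with nearly the same length covered. In the other direction, chr7:48720601-48731200 had 316 ChIP reads in MT and 373 in WT, a change of -0.39 with an interval from -0.61 to -0.17, and its input reads were 154 and 117. At chr19:34786001-34797600 the reads were 320 and 365, a change of -0.33. These values compare 2 mice and cover counting error only.

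The covered share itself differed most at domains that were long in 1 list and a short island in the other. In MT the largest excess was at chr5:54248201-54260200, where the MT island filled 12000 bp with 387 ChIP reads and the WT island was 1000 bp with 41. The next were chr12:83317801-83329200, chr6:55406401-55417800, chr1:169210601-169222800 and chr3:121336201-121349400, where WT islands of 1600 to 2000 bp covered 14.0% to 15.2% of the span. All 5 were 1 island in each list.

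In WT the largest excess was at the chr8:18756801-18767400 domain named above, followed by chr3:86857401-86867600, where 2400 bp with 80 reads in MT faced 10200 bp with 286 in WT. The others were chr15:85477001-85487200, chr18:39033001-39044200 and chr17:84123801-84141400. At the last of these the WT island was 17600 bp long with 587 reads, and MT covered 40.9% of it with 216.

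Enrichment over input was moderate and alike in both genotypes. ChIP reads over scaled input had a median of 2.13 in MT and 2.11 in WT and were pooled over all domains 2.20 in each. Shared regions of 5 to under 10 kb had medians of 2.06 and 2.08, and all shared regions outside the broad domains 2.14 and 2.16. The rule set a minimum on the ratio behind these values, so nothing is read from their likeness. Ranked by the lower of the 2 genotypes, the highest enrichment was at chr1:67042401-67052400, 4.86 in MT and 6.87 in WT, where the input was low, with 58 and 39 reads against 298 and 295 ChIP reads. The 4 next in this ranking, chr6:129192601-129204800, chr6:31144801-31154800, chr17:70991801-71002800 and chr11:22333201-22344200, reached at least 3.67 in both genotypes. Across domains the enrichment of MT and WT had a Spearman rho of 0.68 and their ChIP densities one of 0.67, while the input densities had one of 0.67 as well.

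Median enrichment was highest in the longest class. In the 436 domains under 12 kb the median enrichment was 2.10 in MT and 2.06 in WT. It was 2.22 and 2.19 in the 141 domains from 15 to under 20 kb. In the 53 domains from 20 to under 30 kb it was 2.27 and 2.15, so the rise in WT was not steady. The 13 domains of 30 kb or more, a class of few members, had 2.51 and 2.55. Over all domains the Spearman rho of span with enrichment was 0.13 in MT and 0.11 in WT, a weak relation. The ratio of the length covered in MT to that in WT was 1.19 in the shortest class and 1.07 in the longest, and the median number of WT islands was 2 and 4.

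Broad domains lay on every chromosome in the lists, and chromosome X had only 1. By the study's text the mutant mice were males, and whether sex bears on this count was not tested. The domain on X, chrX:99748801-99764000, spanned 15200 bp with 577 ChIP reads in MT and 537 in WT, and was 1 of 78 shared regions there (1.28%, exact binomial interval 0.03% to 6.94%). Chromosome 16 had the highest share of shared regions, 8.35% (54 domains, interval 6.33% to 10.7%), and chromosome 3 had the lowest of the autosomes, 4.30% (32 domains, interval 2.96% to 6.02%). Apart from these and chromosome 10 (36 domains, 4.42%, interval 3.11% to 6.06%), the interval of every chromosome held the 6.29% of all chromosomes. Chromosome 11 held the most domains, 74, or 6.09 per 10 Mb. With each chromosome divided into 4 equal parts, 19.3% of the domains lay in the part nearest the start of the coordinates and 30.3% in the part nearest the end. All shared regions were spread alike, with 19.5% and 29.4%, so this is no property of broad domains.

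**Figure D5:**
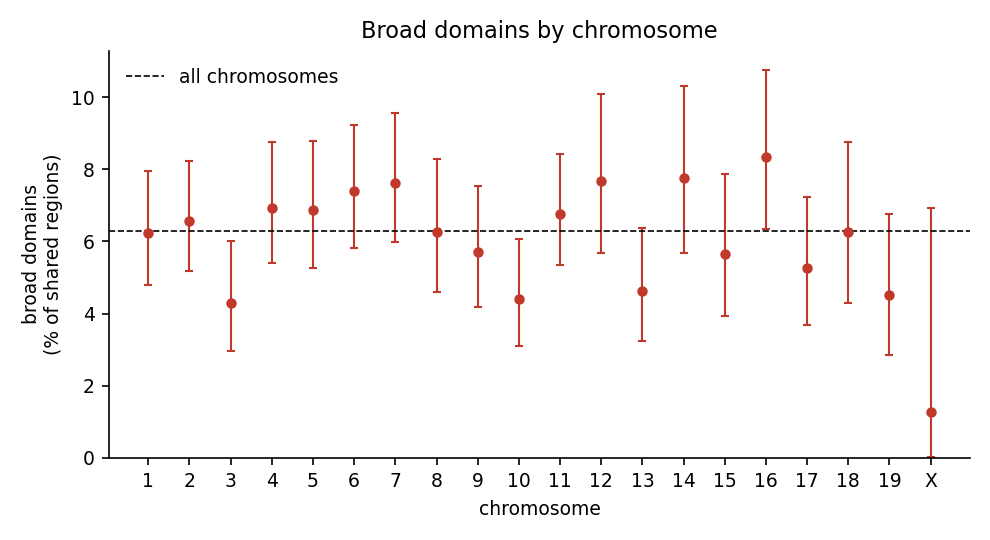
Broad domains as a percent of the shared regions of each chromosome, with 95% exact binomial intervals that cover counting error only, and the value over all chromosomes dashed (6.29%). Chromosome X stands lowest with 1 domain of 78 shared regions, and its interval reaches above the dashed line.

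Broad domains often had another beside them. The nearest broad domain was a median of 198.8 kb away, within 10 kb for 187 domains and within 100 kb for 417 (45.0%). Joined over distances of up to 100 kb they formed 170 chains of at least 2 domains and 45 of at least 3. The largest chain, at chr12:80416801-80712800, held 7 domains of 10000 to 17600 bp over 296 kb, with density changes from -0.13 to 0.13. A chain of 6 at chr8:129544801-129775200 contained the second longest domain, and its changes ran from -0.45 to 0.06. The smallest distance between neighbours was 0 kb, since regions that touch without overlapping were kept apart. The distances and chains were not set beside those of other shared regions, so they are not read as particular to broad domains.

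For 247 pairs of neighbouring domains up to 100 kb apart, the enrichment had a Spearman rho of 0.34 and the density change one of 0.15, and the change of the input one of 0.04. For 659 pairs further apart the values were 0.03, 0.00 and 0.02. These are descriptions over pairs that share the same 4 libraries and, within a chain, the same domains.

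Some chains moved in 1 direction throughout, either lower or higher in MT, and the examples here were picked after their values were seen. At chr4:149524401-149652200, all 5 domains were lower in MT, with density changes from -0.49 to -0.15. The lowest of them, at chr4:149637001-149652200, had 585 ChIP reads over 14600 bp in MT and 472 over 8800 bp in WT. At chr7:48682401-48748800, all 4 domains were lower, from -0.39 to -0.18. At chr4:97240801-97365600, by contrast, all 4 domains were higher in MT, from 0.02 to 0.24. At chr6:108409601-108509800, 3 of 4 domains were higher in MT with changes of 0.28, 0.37 and 0.50, and the remaining one had a change of -0.02. In that domain WT covered 4200 bp with 122 reads and MT 13200 bp with 396.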

How the data were processed

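ChIP-Seq islands of 1 MT and 1 WT liver were used. Per the submitters' processing notes, Bowtie 0.12.7, SICER 1.03 and build mm8 were used, and by the list titles duplicates were removed, the window was 200 bp, the gap 400 bp and the false discovery rate 0.001. The deposited counts are whole ChIP and input reads per island. The deposited p-value and false discovery rate test ChIP against scaled input, and the deposited fold is ChIP over input reads, each relative to its library's size. The 0-based starts of the lists were turned to 1-based.

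Regions, densities per covered kb and changes were computed in Python 3.11.15 (pandas 2.3.3, scipy 1.17.1, numpy 2.4.6) and tested on simulated data. Intervals of shares and of single domains are 95% exact binomial intervals. Those of summed densities are normal intervals on the log scale that include the counting error of the input reads behind the library ratio. All cover counting error only. With 1 library per group no test was run. The members, lists and alternatives were chosen with earlier results of these data known. Named domains were the 10 longest, the 5 extremes of density change, enrichment and covered share, and those at the limits. The gene part of this rule was not applied and no sequence was printed, because no mm8 reference was used here.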

Additional observations from a re-analysis of the deposited data

How the results depend on the processing

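Leaving out a replicate was not run, with 1 library in each group. No paired analysis was possible because each genotype has 1 mouse, with 1 ChIP and 1 input library. The values below are in this order where given: number of domains, percent of ChIP reads in MT and in WT, covered length ratio, percent with more length in MT, percent with more islands in WT, median log2 density change, median log2 change of reads, pooled density ratio, and domains at least 25% higher and at least 20% lower in MT. The causes were not tested.

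At a span of at least 8000 bp there were 1714 domains, with 22.1% and 23.1% of reads, a ratio of 1.17, 36.6% with more WT islands, and 90 higher and 83 lower. At 15000 bp there were 207, with 5.24% and 5.605%, a ratio of 1.13, 47.3% with more WT islands, a density change of 0.029, a pooled ratio of 1.02, and 8 and 3. At 20000 bp there were 66, with 2.28% and 2.51%, a ratio of 1.11, 72.7% with more MT length, 51.5% with more WT islands, a reads change of 0.14, and 2 and 0. At a ChIP over input ratio of at least 2 there were 578, with 10.2% and 11.0%, a ratio of 1.14, and 23 and 18. With the input scaled before the ratio of 1.5, reads were 14.0% and 14.8%. With the false discovery rate limited to 1e-05, reads were 17.0% and 18.2%, the ratio 1.17, more WT islands 34.2% and the pooled ratio 0.998. With 1 island of at least 10000 bp in each list there were 131, with 3.48% and 4.00%, a ratio of 1.052, 57.3% with more MT length, 30.5% with more WT islands, changes of 0.029 and 0.064, a pooled ratio of 1.02, and 4 and 1. With islands joined over gaps of up to 1000 bp there were 1767, with 27.9% and 28.3%, a ratio of 1.22, 35.8% with more WT islands, changes of -0.0050 and 0.28, a pooled ratio of 0.995, and 89 and 76. With at least 80% of the span in islands of both lists, added after seeing the data, there were 261, with 5.26% and 6.16%, a ratio of 1.02, 53.6% with more MT length, changes of 0.034 and 0.065, a pooled ratio of 1.028, and 16 and 2.

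With equal ChIP totals over all islands the changes were -0.29 and -0.10, the latter reversed, the pooled ratio 0.817, and 4 and 388 domains higher and lower. With equal totals over the other shared regions they were -0.19 and 0.0061, the ratio 0.878, and 6 and 198. With ChIP over each genotype's own scaled input the reads change became 0.0027, and 98 domains were higher and 71 lower. The share of all shared regions past these steps was not computed for these settings. The other values moved by less than their counting interval, or by less than 1.5 times for counts. Read depth limits single domains to a counting SD of 0.11 on the log2 scale.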

Other observations

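Regions of at least 10 kb also occurred in 1 list alone, 21 in MT and 6 in WT. They spanned 10000 to 15800 bp in MT and 10000 to 13200 bp in WT, and their ChIP over scaled input had a median of 1.49 in MT and 1.44 in WT, with no minimum set on the ratio. Of these, 13 in MT and 3 in WT had at least 1.5 ChIP reads per input read. None of them lay on chromosome X.

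The surroundings of broad domains held many islands. Within 50 kb on either side of a domain the median number of other islands was 6 in MT and 5 in WT, against 5 and 4 for shared regions of 5 to under 10 kb.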
